A study of Mus musculus with 4 samples.

Results

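The TNF ligand and receptor superfamily was examined in bulk RNA sequencing of marrow stromal cells from mouse femurs at postnatal day 21. Its members were taken by symbol as the rows named Tnfsf or Tnfrsf followed by a number, plus Tnf, which gave 31 of the 17230 genes in the count table (12 ligand genes and 19 receptor genes). The cells were labelled as CXCL12-abundant reticular (CAR) cells, the reticular stroma of the marrow that makes CXCL12, and were sorted as GFP+ and tdTomato+ per the cell type labels, while the extraction protocol names tdTomato alone and loading onto a single-cell droplet platform. The series title calls the data bulk, and each library has 1 column of counts, so they were treated as bulk libraries. All mice carried GFP on 1 allele of Cxcl12 and a tdTomato reporter on 1 allele of R26R, and all were given tamoxifen at embryonic day 12.5, which activates the Cre recombinase and marks cells and their descendants for good. The 2 Hes1-derived libraries (replicates 1 and 3) came from Cxcl12(GFP/+); Hes1(CreER/+); R26R(tdTomato/+) mice, with the Cre on 1 allele of Hes1. The 2 Fgfr3-derived libraries (replicates 2 and 3) came from Cxcl12(GFP/+); Fgfr3-iCreER; R26R(tdTomato/+) mice, with the Cre driven by Fgfr3. The series title names fetal perichondrium and chondrocytes as the origins of these CAR cells. The Cre line and the origin cannot be told apart in this design, and whether each library held 1 animal or a pool is not given in the labels.

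TNF superfamily ligands are trimeric proteins, mostly anchored in the membrane, and their receptors carry cysteine-rich repeats outside the cell. Receptors with a death domain can start apoptosis, and many receptors with or without one use TRAF adaptors and switch on NF-kB and MAP kinases. In bone, RANKL (Tnfsf11) on stromal and osteoblast-lineage cells binds RANK (Tnfrsf11a) on osteoclast precursors and drives osteoclast formation, and osteoprotegerin (Tnfrsf11b) is a secreted decoy that captures RANKL. In marrow and spleen, BAFF (Tnfsf13b) and APRIL (Tnfsf13) bind receptors on B-lineage cells and support their survival.

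The promoters of the 4 members that passed the test are shown because they carry the main result: 3 of them belong to genes that were lower in Hes1-derived libraries and 1 to a gene that was higher. Each sequence is the 250 bases before the start site in RefSeq (build GRCm38.p6), written 5′ to 3′ on the strand of the gene, and capitals mark the matches to a motif. The counts do not show which start site was used.
Tnfsf11 (chr14:78308044-78308293, minus strand): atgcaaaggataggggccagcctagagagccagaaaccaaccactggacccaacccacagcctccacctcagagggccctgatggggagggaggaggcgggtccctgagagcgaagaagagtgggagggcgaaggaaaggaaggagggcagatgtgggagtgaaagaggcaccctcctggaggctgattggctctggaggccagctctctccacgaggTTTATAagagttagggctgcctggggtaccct
Tnfrsf12a (chr17:23677450-23677699, minus strand): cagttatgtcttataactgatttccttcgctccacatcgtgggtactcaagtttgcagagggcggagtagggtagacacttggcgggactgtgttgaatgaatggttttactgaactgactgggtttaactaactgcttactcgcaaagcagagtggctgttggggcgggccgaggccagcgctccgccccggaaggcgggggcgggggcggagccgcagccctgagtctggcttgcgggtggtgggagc
Tnfrsf21 (chr17:43016305-43016554, plus strand): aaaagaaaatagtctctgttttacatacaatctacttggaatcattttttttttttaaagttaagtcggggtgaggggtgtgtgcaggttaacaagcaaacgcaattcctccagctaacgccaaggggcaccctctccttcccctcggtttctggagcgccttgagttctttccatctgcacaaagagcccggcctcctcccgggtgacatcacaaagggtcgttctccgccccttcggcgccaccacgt
Tnfrsf13c (chr15:82224381-82224630, minus strand): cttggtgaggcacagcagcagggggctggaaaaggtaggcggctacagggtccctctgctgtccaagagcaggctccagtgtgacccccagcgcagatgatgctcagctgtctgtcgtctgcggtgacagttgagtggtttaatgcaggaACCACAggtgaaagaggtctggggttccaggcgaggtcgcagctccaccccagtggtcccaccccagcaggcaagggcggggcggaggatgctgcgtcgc

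Both strands of the 250 bases were searched for 6 motifs. They were AP-1 (TGANTCA), RUNX (TGTGGT), EBF (CCCNNGGG), PU.1 (GAGGAAGT), the TATA box (TATAAA) and a strict spelling of the NF-kB site. Looser spellings of the NF-kB site were not searched. The Tnfsf11 promoter held 1 TATA box, read on the opposite strand and starting 32 bases before the start site, and the motif was present in 12.4% of all 32851 promoters of the table. The Tnfrsf13c promoter held 1 RUNX match 100 bases before the start site, a motif present in 14.0% of all promoters. The Tnfrsf12a and Tnfrsf21 promoters held none of the 6. A promoter was listed for 24 of the 31 members, with 28 start sites, of which 5 held AP-1 (17.9%, against 6.75% of all promoters), 3 RUNX (10.7%), 4 EBF (14.3%, against 11.8%), 1 PU.1 (3.57%, against 2.44%) and 4 the TATA box (14.3%). None held the NF-kB motif in its strict spelling, which 0.356% of all promoters held. A motif this rare was unlikely to be met among 28 start sites, so its absence carries no weight. Within the printed promoters no match overlapped another.

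The libraries held 22745128 to 26804832 counted reads, so that 1 read was worth 0.0382 to 0.0440 CPM (reads relative to the library total, scaled with TMM factors). Paired values are given in the order of replicates 1 and 3 for Hes1-derived and 2 and 3 for Fgfr3-derived libraries. Summed CPM of 7 pan-leukocyte markers was 4878 and 5900 in Hes1-derived libraries against 1427 and 3025 in Fgfr3-derived ones, with 5 of 7 called higher. All 8 B lymphocyte markers and 4 of 5 erythroid markers were called higher, and 5 of 7 osteoblast markers were called lower. None of the neutrophil, megakaryocyte and plasma cell markers tested was called. All 6 neutrophil markers had a positive log2 fold change, and they summed to 23078 and 27104 against 7751 and 19045 CPM. The 3 plasma cell markers tested had negative values, and Igj, which was not tested, had 3 and 1304 reads against 2 and 4. The CAR cell markers themselves were present in every library, with a summed CPM of 10846 and 6984 against 16251 and 10638, and 1 of the 10 was called lower. Fewer cells of a type and less RNA per cell cannot be told apart in bulk samples.

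Of the 31 members 24 passed the low-count filter and were tested. Tnfsf11, Tnfrsf12a and Tnfrsf21 were lower in Hes1-derived libraries and Tnfrsf13c was higher, with edgeR's quasi-likelihood test and an adjusted p under 0.05. These 4 calls made up 16.7% of the tested members, and 11.8% of all 14330 tested genes were called, 5.24% as higher and 6.56% as lower. The median log2 fold change (Hes1-derived minus Fgfr3-derived) was −0.01 over the 24 tested members and −0.02 over all tested genes, and 12 members had a positive and 12 a negative value. The CPM of the groups did not overlap for 17 tested members (70.8%), 8 with Hes1-derived above and 9 below, and this held for 61.9% of all tested genes, 29.8% above and 32.1% below. In this edgeR fit the share of members called and the median therefore lay near those of all genes. The differences described here are those of single members. With DESeq2 10 of 27 members were called, 4 higher and 6 lower, where 19.9% of all genes were. With limma-voom 2 of 24 were called higher and 4 lower, where 13.5% of all genes were called. In both the share of members called lay above that of all genes, and the members were not tested as a set. Scaling the libraries to the CAR cell markers or to eGFP left Tnfrsf13c called, added Tnfrsf14 and ended the 3 calls of lower members, with 4.75% and 2.39% of all genes called. Leaving out Hes1-derived replicate 1 or 3 gave 4 and 3 calls among the members (8.61% and 2.86% of all genes). Leaving out Fgfr3-derived replicate 2 or 3 gave 4 and 7 (3.29% and 15.1%).

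**Figure D1:**
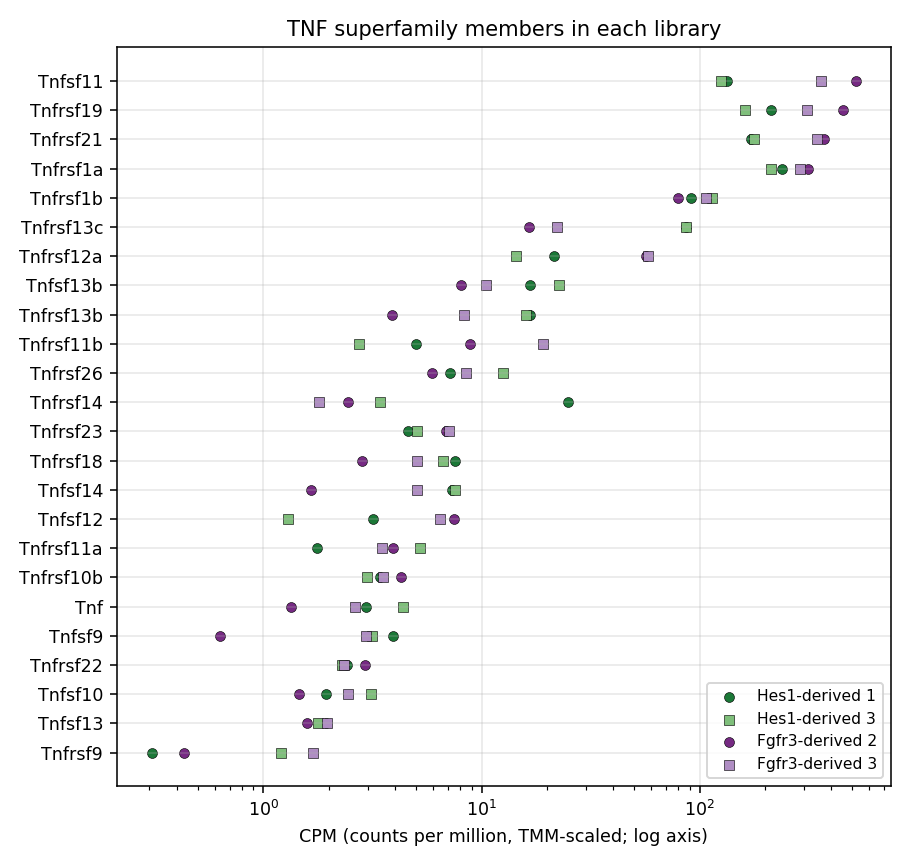
CPM (log axis) of the 24 tested members in each of the 4 libraries, ordered by their mean. Tnfsf11, Tnfrsf19, Tnfrsf21 and Tnfrsf1a lie above 100 CPM in all libraries, and Tnfsf11 and Tnfrsf21 show the Fgfr3-derived libraries (purple) apart from the Hes1-derived ones (green).

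**Figure D2:**
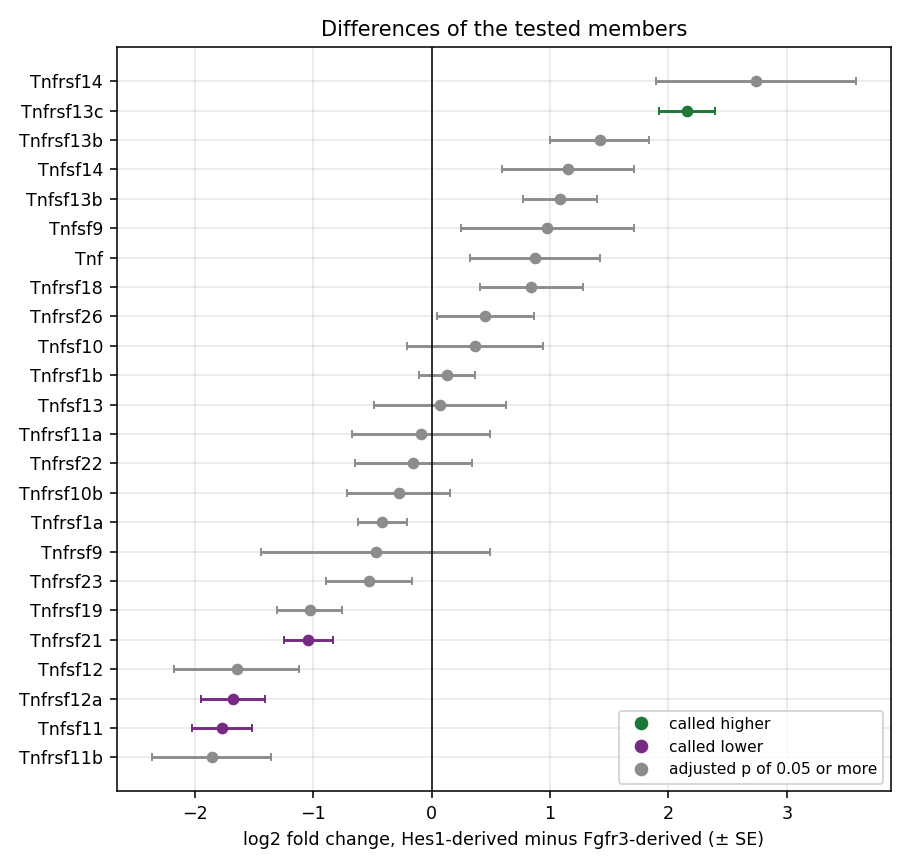
Log2 fold change, Hes1-derived minus Fgfr3-derived, with its standard error for each of the 24 tested members. Tnfrsf13c is called higher and Tnfsf11, Tnfrsf12a and Tnfrsf21 are called lower, while Tnfrsf14 and Tnfrsf11b lie farther out with wider errors and are not called.

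Levels between genes were compared as CPM per kilobase of exon sequence in GENCODE M21. In Hes1-derived libraries the mean was 87.2 CPM per kilobase for Tnfrsf1a, 57.9 for Tnfsf11, 42.6 for Tnfrsf21, 42.2 for Tnfrsf13c and 39.4 for Tnfrsf19. In Fgfr3-derived libraries the mean was 197 CPM per kilobase for Tnfsf11, 116 for Tnfrsf1a, 87.6 for Tnfrsf21, 80.5 for Tnfrsf19 and 29.7 for Tnfrsf12a. RANKL was thus the leading member in the Fgfr3-derived libraries and the second in the Hes1-derived ones, and no other Tnf or Tnfsf gene exceeded 4.59 CPM per kilobase in either group. The ligand gene Ltb, which the choice by symbol leaves out, had 57.8 CPM per kilobase in Hes1-derived and 11.8 in Fgfr3-derived libraries. Some neighbours in this order were not separated. Tnfrsf19 (95.6 and 65.4 CPM per kilobase in Fgfr3-derived replicates 2 and 3) overlapped Tnfrsf21 (90.7 and 84.5), and Tnfrsf21 (42.1 and 43.1 in Hes1-derived replicates 1 and 3) overlapped Tnfrsf13c (42.1 and 42.3).

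RANKL was the only one of 8 tested ligand genes that passed the test, 12.5% of them against 11.8% of all tested genes. Tnfsf11 (chr14:78277445-78308043, minus strand, GRCm38) stood at 133 and 126 CPM in the Hes1-derived libraries (replicates 1, then 3) and at 521 and 362 CPM in the Fgfr3-derived ones (replicates 2, then 3). Both Fgfr3-derived libraries lay above both Hes1-derived libraries, and the Hes1-derived pair lay close together. The means were 129 ± 5.11 and 441 ± 112 CPM (SD, n = 2), and the log2 fold change was −1.77 ± 0.25 (SE, adjusted p = 0.016), a 3.41-fold difference. The call held with each of the 4 libraries left out (−1.96 to −1.47) and ended when libraries were scaled to the CAR cell markers (−1.09, adjusted p = 0.35) or to eGFP reads (−0.89, adjusted p = 0.48). These scalings put the median of all genes at 0.60 and 0.83 (log2), and relative to that median Tnfsf11 stood at −1.69 and −1.72. Subtracting the median largely undoes the scaling, so here and below such values return close to the TMM value and are no separate check. Per 1000 Cxcl12 reads, Tnfsf11 had 18.8 and 30.1 reads in Hes1-derived libraries against 53.4 and 51.5 reads in Fgfr3-derived ones, so that the groups did not overlap on this scale either. Markers of the osteoblast lineage, which also makes RANKL, were lower in the same libraries, with 5 of 7 called and a summed CPM of 3636 and 3692 against 15106 and 18759. Of the 2 most abundant, Spp1 stood at 578 and 454 against 6382 and 7193 CPM (adjusted p = 0.013), and Col1a1 at 1152 and 1823 against 3084 and 6210 CPM (adjusted p = 0.056). The part of these cells in the Tnfsf11 difference was not tested.

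Osteoprotegerin had far fewer reads than RANKL. Tnfrsf11b (chr15:54250619-54278484, minus strand) stood at 5.01 and 2.74 CPM in Hes1-derived and at 8.87 and 19.2 CPM in Fgfr3-derived libraries. The groups did not overlap, but the Fgfr3-derived libraries lay far apart. The log2 fold change was −1.86 ± 0.50 (SE) and did not pass edgeR's test (adjusted p = 0.056), while it passed DESeq2 (−1.84, adjusted p = 0.0027) and edgeR with Fgfr3-derived replicate 2 left out (−2.30, adjusted p = 0.049). It was −1.15 without Fgfr3-derived replicate 3 (adjusted p = 0.19). Within a library, 26.5 and 45.9 Tnfsf11 reads were counted per Tnfrsf11b read in Hes1-derived libraries against 58.7 and 18.8 in Fgfr3-derived ones. This ratio does not depend on scaling, and the Fgfr3-derived libraries gave both the highest and the lowest value, so that no difference between the groups was detectable.

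RANK, the receptor on osteoclast precursors, was scarce. Tnfrsf11a (chr1:105780718-105847981, plus strand) stood at 1.76 and 5.20 CPM in Hes1-derived and at 3.94 and 3.48 CPM in Fgfr3-derived libraries. The Hes1-derived libraries lay on either side of the Fgfr3-derived ones, and the log2 fold change was −0.09 ± 0.58 (SE, adjusted p = 0.94), with its sign turned when Hes1-derived replicate 1 or Fgfr3-derived replicate 2 was left out. Of 8 osteoclast markers 6 were lowest in Hes1-derived replicate 1, Acp5 was not, and Calcr was tied at 0 in 3 libraries. This tally was made after the values were seen, and the share of all genes lowest in that library was not counted. Of the 6, Mmp9 and Ctsk were lower in both Hes1-derived libraries than in both Fgfr3-derived ones. Ocstamp, a fusion gene of osteoclasts, had 0.528 and 8.91 CPM in the Hes1-derived pair against 4.34 and 3.59 CPM, and Atp6v0d2, a proton pump subunit, had 2.42 and 15.1 against 13.4 and 10.2 CPM. Of the 7 tested, Acp5 (127 and 174 against 71.5 and 79.5 CPM) was higher and Mmp9 was lower. The summed CPM of the list, 1296 and 1610 against 3304 and 3283, was mostly Mmp9. Any part of osteoclast-lineage cells in the Tnfrsf11a reads was not tested.

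**Figure D3:**
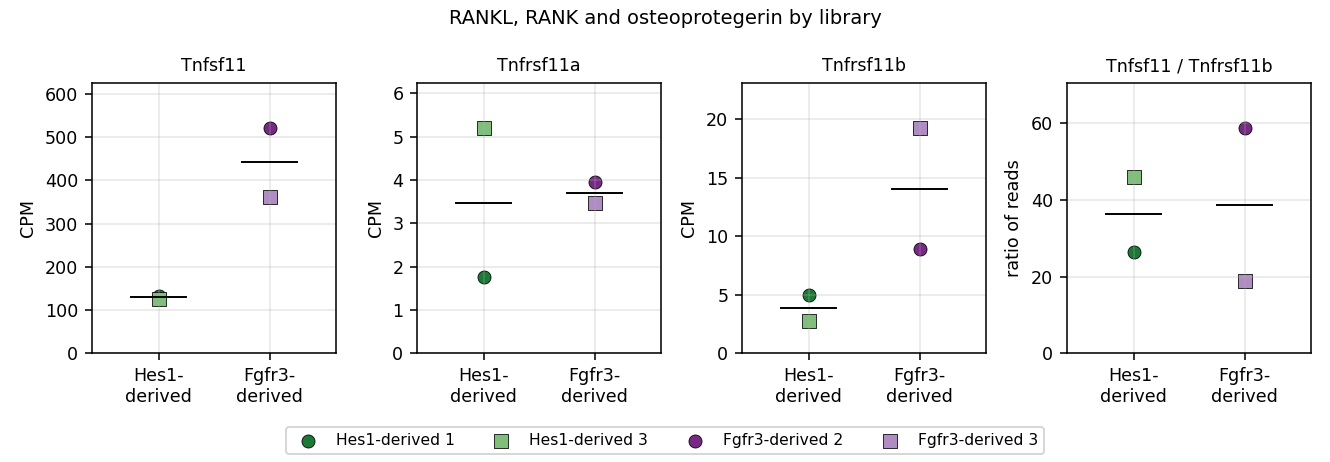
CPM of Tnfsf11 (RANKL), Tnfrsf11a (RANK) and Tnfrsf11b (osteoprotegerin) in each library, and the reads of Tnfsf11 per Tnfrsf11b read, with a line at the mean of each group. Tnfsf11 separates the groups (126 to 133 against 362 to 521 CPM), and the ratio does not (26.5 and 45.9 against 58.7 and 18.8).

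Of the receptors 2 were called lower and 1 higher of 16 tested, 18.8% against 11.8% of all tested genes. Tnfrsf12a (chr17:23675445-23677468, minus strand), which encodes Fn14, the receptor of TWEAK and a gene induced by growth factors, stood at 21.5 and 14.3 CPM in Hes1-derived and at 56.7 and 57.9 CPM in Fgfr3-derived libraries. The Fgfr3-derived libraries lay close together and above both others. The log2 fold change was −1.68 ± 0.27 (SE, adjusted p = 0.019), a 3.20-fold difference. The call ended without Hes1-derived replicate 3 (−1.41, adjusted p = 0.060) and when scaled to the CAR cell markers (−1.11, adjusted p = 0.29) or to eGFP (−0.93, adjusted p = 0.46), where it stood at −1.71 and −1.76 relative to the median of all genes. Its ligand gene Tnfsf12 stood at 3.17 and 1.29 CPM against 7.49 and 6.42 CPM, and its log2 fold change of −1.64 ± 0.53 (SE) did not pass (adjusted p = 0.086), though it did with DESeq2 (adjusted p = 0.029) and without Hes1-derived replicate 1 (−2.43, adjusted p = 0.045). In GENCODE M21, 48.3% of its exon bases are shared with Tnfsfm13, a transcript that joins it to its neighbour Tnfsf13, so its reads are uncertain.

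Tnfrsf21 (chr17:43016555-43089189, plus strand) encodes DR6, a receptor with a death domain. It stood at 173 and 177 CPM in Hes1-derived and at 373 and 347 CPM in Fgfr3-derived libraries. Both groups were tight and apart, and the log2 fold change was −1.04 ± 0.21 (SE, adjusted p = 0.026), a 2.06-fold difference. The call held without Fgfr3-derived replicate 3 (−1.04, adjusted p = 0.029) and ended when any other library was left out. The log2 fold change was then −1.02 without Hes1-derived replicate 1 (adjusted p = 0.079), −1.06 without the other Hes1-derived library (adjusted p = 0.11) and −0.97 with Fgfr3-derived replicate 2 left out (adjusted p = 0.070). It also ended when scaled to the CAR cell markers (−0.41, adjusted p = 0.71) or to eGFP (−0.18, adjusted p = 0.88), where it stood at −1.01 relative to the median of all genes in both.

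Tnfrsf19 (chr14:60963875-61046490, minus strand) encodes TROY, a receptor without a death domain that is known from skin and the nervous system and as a WNT-responsive gene. It stood at 212 and 162 CPM in Hes1-derived and at 453 and 310.1 CPM in Fgfr3-derived libraries. The groups did not overlap, and the spread within each was wide. The log2 fold change of −1.03 ± 0.27 (SE) lay just outside the threshold (adjusted p = 0.052). It lay inside with DESeq2 (adjusted p = 0.0040), limma-voom (adjusted p = 0.043), no low-count filter (adjusted p = 0.049), a minimum count of 30 (adjusted p = 0.048) and with Fgfr3-derived replicate 3 left out (−1.23, adjusted p = 0.025). Over all 11 alternatives the adjusted p ran from 0.0040 to 0.86. The log2 fold change was −0.37 when scaled to the CAR cell markers (adjusted p = 0.74) and −0.21 when scaled to eGFP (adjusted p = 0.86). Relative to the median of all genes it then stood at −0.97 and −1.04. With 1 library left out the log2 fold change ran from −1.24 to −0.72. Per 1000 Cxcl12 reads Tnfrsf19 had 30.003 and 38.7 reads in Hes1-derived libraries against 46.4 and 44.1 in Fgfr3-derived ones.

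TNF itself was scarce, and its receptors were not. Tnf (chr17:35199381-35202007, minus strand) stood at 2.95 and 4.35 CPM in Hes1-derived and at 1.34 and 2.64 CPM in Fgfr3-derived libraries. The Hes1-derived libraries were the higher pair, but the log2 fold change of 0.87 ± 0.55 (SE) did not pass (adjusted p = 0.34). Tnfrsf1a, the widely expressed receptor with a death domain, stood at 239 and 213 CPM against 314 and 289 CPM (log2 fold change −0.41 ± 0.21, adjusted p = 0.23), and relative to the median of all genes it stood at −0.40 and −0.41 when scaled to the CAR cell markers and to eGFP. Tnfrsf1b, the receptor without a death domain that many blood cells express, stood at 91.4 and 114 CPM against 79.8 and 107 CPM, with overlapping groups (0.13 ± 0.24, adjusted p = 0.76). Its sign turned without Hes1-derived replicate 3 (−0.03) and when Fgfr3-derived replicate 2 was left out (−0.05).

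A receptor of B-lineage cells was higher in Hes1-derived libraries, where B lymphocyte markers were higher too. Tnfrsf13c (chr15:82221743-82224369, minus strand), which encodes the BAFF receptor of B cells, stood at 86.3 and 86.7 CPM in Hes1-derived and at 16.6 and 22.2 CPM in Fgfr3-derived libraries. The groups lay far apart, and the log2 fold change was 2.16 ± 0.24 (SE, adjusted p = 0.013), a 4.46-fold difference. The call held in all 11 alternatives (1.98 to 2.98, adjusted p at most 0.025). The 8 B lymphocyte markers summed to 2286 and 2128 CPM against 314 and 555 CPM, all 8 were called higher, and their median log2 fold change was 2.33. The 2 most abundant, Cd79a and Cd79b, which encode the signalling chains of the B-cell receptor, had log2 fold changes of 2.42 and 2.36. Per 1000 reads of these markers, Tnfrsf13c had 37.7 and 40.7 reads in Hes1-derived libraries against 52.8 and 40.0 reads in Fgfr3-derived ones, so that on this scale the groups overlapped. The part of B cells in the Tnfrsf13c difference was not tested.

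Tnfrsf13b, which encodes TACI, a receptor of both BAFF and APRIL, stood at 16.8 and 16.0 CPM in Hes1-derived and at 3.90 and 8.33 CPM in Fgfr3-derived libraries. Its log2 fold change of 1.42 ± 0.42 (SE) did not pass edgeR (adjusted p = 0.069). It passed DESeq2 (1.44, adjusted p = 0.0091), limma-voom (1.51, adjusted p = 0.046) and edgeR without Fgfr3-derived replicate 3 (2.11, adjusted p = 0.020). Per 1000 B marker reads the order was the opposite, with 7.33 and 7.52 reads in Hes1-derived libraries against 12.4 and 15.0 in Fgfr3-derived ones. The BAFF gene Tnfsf13b (chr8:10006467-10039072, plus strand) stood at 16.7 and 22.7 CPM against 8.08 and 10.5 CPM. The groups did not overlap, and the log2 fold change of 1.08 ± 0.32 (SE) did not pass edgeR (adjusted p = 0.068) but passed DESeq2 (1.11, adjusted p = 0.020). BAFF is also made by myeloid cells, and 2 of 6 monocyte and macrophage markers were called higher, with a sum over the 6 of 313 and 411 CPM against 155 and 225 CPM. Their part in the Tnfsf13b reads was not tested. The APRIL gene Tnfsf13 had 1.94 and 1.77 CPM against 1.58 and 1.95 CPM (log2 fold change 0.07 ± 0.56, adjusted p = 0.95), shares 60.0% of its exon bases with Tnfsfm13, and is uncertain for that reason.

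**Figure D4:**
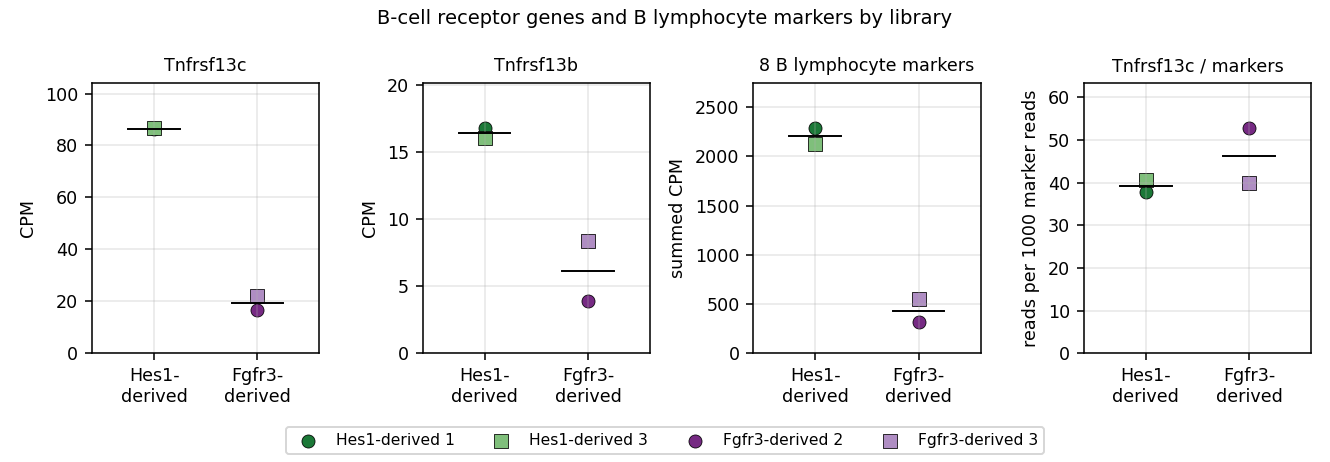
CPM of Tnfrsf13c and Tnfrsf13b, summed CPM of 8 B lymphocyte markers, and Tnfrsf13c reads per 1000 reads of those markers, for each library with a line at the group mean. Tnfrsf13c and the markers are both high in the Hes1-derived libraries, and their ratio (37.7 and 40.7 against 52.8 and 40.0) overlaps between the groups.

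Tnfrsf14, Tnfsf14, Tnfrsf18 and Tnfsf9, genes of lymphocyte co-stimulation, did not pass edgeR's test. Tnfrsf14, which encodes HVEM, the receptor of LIGHT, had 567 reads (24.9 CPM) in Hes1-derived replicate 1 against 85 reads (3.43 CPM) in Hes1-derived replicate 3, and 2.44 and 1.80 CPM in Fgfr3-derived libraries. The log2 fold change of 2.74 ± 0.85 (SE) was the highest among the members, did not pass (adjusted p = 0.078), and was 0.69 without Hes1-derived replicate 1 (adjusted p = 0.58). It passed DESeq2 (2.76, adjusted p = 5.91e-04), both scalings to stroma and edgeR without Hes1-derived replicate 3 (3.55, adjusted p = 0.018). Tnfsf14, the gene of LIGHT, stood at 7.35 and 7.54 CPM against 1.66 and 5.05 CPM (log2 fold change 1.15 ± 0.56, adjusted p = 0.22) and passed only without Fgfr3-derived replicate 3 (2.21, adjusted p = 0.036). Tnfrsf18, which encodes GITR of regulatory T cells, stood at 7.57 and 6.65 against 2.84 and 5.08 CPM, and 27.2% of its exon bases lie opposite an antisense gene. Tnfsf9, the ligand of 4-1BB, stood at 3.91 and 3.14 against 0.631 and 2.94 CPM, with 14.9% of its exon bases opposite a non-coding gene. Without a known strand setting the reads of such pairs cannot be told apart. For Tnfrsf14, Tnfsf14, Tnfrsf18, Tnfsf9 and Tnf the Hes1-derived libraries lay above the Fgfr3-derived ones, without passing the test. Hes1-derived libraries lay above for 29.8% of all tested genes, and for the pan-leukocyte sum too. Fgfr3-derived replicate 2 was lowest in that sum and in Tnfsf14, Tnfrsf18, Tnfsf9 and Tnf. Tnfrsf14 was instead lowest in Fgfr3-derived replicate 3. Within the Hes1-derived pair, Tnfrsf14, Tnfrsf18 and Tnfsf9 were ordered opposite to the sum, and Tnfsf14 and Tnf in the same order as the sum. The part of leukocytes in these reads was not tested.

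The TRAIL system and the decoy receptors showed no difference past the test. The TRAIL gene Tnfsf10 stood at 1.94 and 3.10 CPM in Hes1-derived and 1.46 and 2.45 CPM in Fgfr3-derived libraries, and Tnfrsf10b, the mouse TRAIL death receptor, at 3.43 and 2.98 against 4.26 and 3.52 CPM. Tnfrsf22 and Tnfrsf23, decoy receptors for TRAIL, and Tnfrsf26 lie side by side on chromosome 7 and are similar in sequence, so that their reads are uncertain. Their log2 fold changes were −0.15, −0.53 and 0.46, with adjusted p of 0.87, 0.38 and 0.51. Tnfrsf9, which encodes 4-1BB, did not separate the groups, with 0.308 CPM in Hes1-derived replicate 1 and 0.434 CPM in Fgfr3-derived replicate 2, but 1.21 and 1.68 CPM in replicate 3 of each group.

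The remaining 7 members did not pass the low-count filter. Tnfrsf25 had 8 and 9 reads in Hes1-derived libraries against 18 and 1 in Fgfr3-derived ones, Tnfrsf4 (OX40) 14 and 9 against 2 and 7, and Tnfsf15 7 and 2 against 15 and 9. Tnfrsf8 (CD30) had 3 and 3 reads against none, Tnfsf4 7 and 0 against none, Tnfsf18 3 and 9 against 0 and 7, and Tnfsf8 0 and 3 against 6 and 6. Fitted with no low-count filter, none of the 7 passed, with edgeR's adjusted p from 0.31 for Tnfrsf8 to 0.99 for Tnfrsf25. At this depth 3 reads equal 0.115 to 0.132 CPM.

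Among 14 superfamily genes with other symbols 12 had a row, and 3 were higher and none lower with edgeR (11.8% of all genes were called; at an unadjusted p under 0.05, 4 were higher and 2 lower). The lymphotoxin beta gene Ltb stood at 107 and 68.7 CPM in Hes1-derived and 11.8 and 23.9 CPM in Fgfr3-derived libraries (log2 fold change 2.30 ± 0.39, adjusted p = 0.020). Cd40, which encodes a receptor of B cells and other antigen-presenting cells, stood at 22.7 and 20.1 against 3.55 and 7.03 CPM (log2 fold change 2.02 ± 0.39, adjusted p = 0.026). Lta had 34 and 21 reads against none in both Fgfr3-derived libraries, at least 10.1-fold higher against a floor of 3 reads per library (adjusted p = 0.029). Ltb was called in all 11 alternatives, Cd40 not without Hes1-derived replicate 3 or Fgfr3-derived replicate 2, and Lta not when any library was left out. At a minimum count of 30 Lta did not pass the filter and was not tested. Lta, Tnf and Ltb lie within one cluster on chromosome 17 (chr17:35194439-35205351), where Lta and Ltb passed the test and Tnf did not. On chromosome 6 the neighbours Cd27, Ltbr and Tnfrsf1a had log2 fold changes of 1.59, −0.85 and −0.41, of which none passed edgeR (adjusted p of 0.065, 0.062 and 0.23). Cd27 passed DESeq2 (1.62, adjusted p = 0.035), and Ltbr passed DESeq2 (−0.83, adjusted p = 0.022) and limma-voom (−0.88, adjusted p = 0.0496). B lymphocyte markers (median 2.33) were higher in the same libraries as Ltb, Cd40 and Lta, and their part was not tested.

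No gene of a list of TNF receptor signalling genes passed the test. The list held 46 genes, among them TRAF adaptors, death-domain adaptors, caspases, inhibitors of apoptosis, ubiquitin-system genes, IkB kinases and NF-kB subunits. All were tested, and none passed with edgeR, DESeq2 or limma-voom, where 11.8%, 19.9% and 13.5% of all genes were called. At an unadjusted edgeR p under 0.05, 4 of the 46 were higher (Nfkbie, Birc3, Nfkb1 and Madd) and 3 lower (Traf4, Mlkl and Tnip2). They were named after their values were seen, and 13.7% of all genes were higher and 16.3% lower at that p. The median was 0.16 (−0.02 over all genes). For 3 of the more abundant genes, also named after their values were seen, the values follow. Traf4, a TRAF adaptor of epithelial and stromal cells, stood at 69.6 ± 17.2 against 109 ± 0.54 CPM (SD, n = 2), with a log2 fold change of −0.65 ± 0.23 (SE, adjusted p = 0.11). Nfkb1, the gene of p105 and p50, stood at 90.6 ± 15.5 against 61.9 ± 5.09 CPM (log2 fold change 0.55 ± 0.22, adjusted p = 0.14), and Rela, the gene of p65, at 157 ± 9.24 against 209 ± 14.1 CPM (log2 fold change −0.41 ± 0.20, adjusted p = 0.22).

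**Figure D5:**
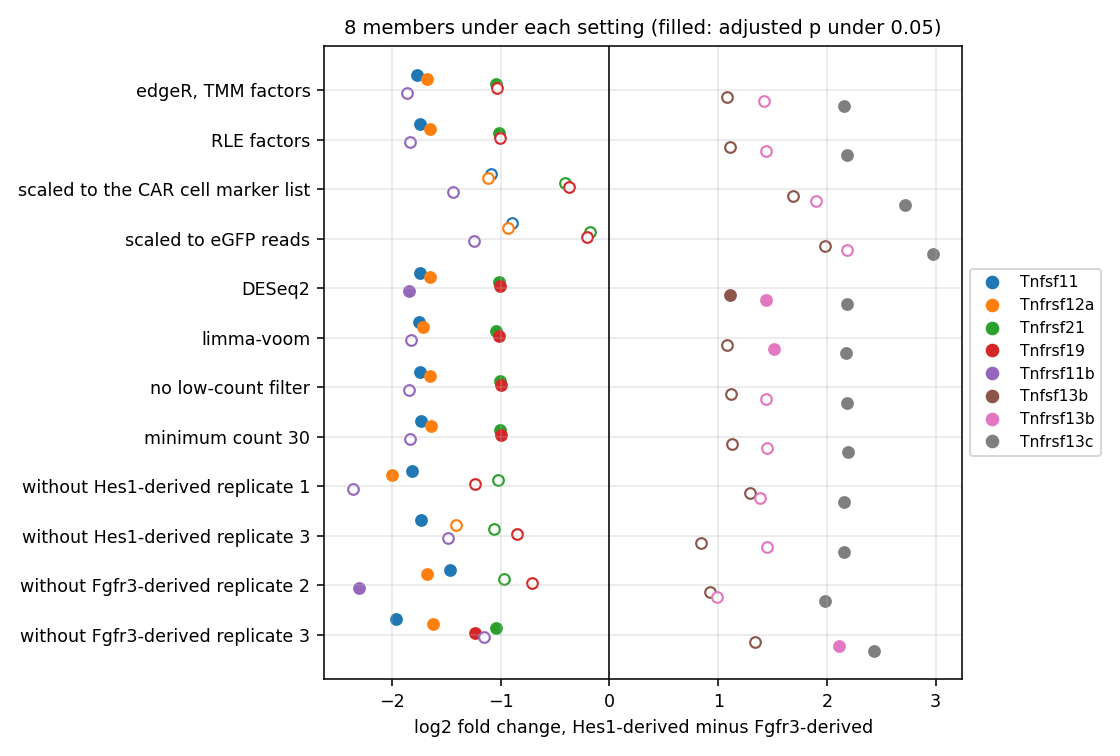
Log2 fold change of 8 members under the edgeR fit and its 11 alternatives, filled where the adjusted p was under 0.05. Tnfrsf13c is filled in every line, Tnfsf11 in all but the scalings to CAR cell markers and to eGFP, and no member shown changes sign.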

How the data were processed

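RNA was amplified with a SMARTer kit and made into libraries with Nextera XT, per the labels. The authors' deposited counts are whole read numbers per gene symbol and library. The submitters' processing notes name TopHat2 2.0.13, Bowtie2 2.2.1, Cufflinks, Cuffdiff, HTSeq, DESeq2 and the build mm10, with no role or order. The annotation and the strand setting are not given in the sources used here. The deposited tables of scaled and regularized log values were not used. Counts were fitted over all genes with edgeR 4.0.16 (R 4.3.3; quasi-likelihood F test, TMM factors, robust dispersions, minimum count 10, Benjamini-Hochberg over 14330 genes, threshold 0.05), and standard errors were taken from the size of each log2 fold change over the root of its F value. The biological coefficient of variation was 27.8%. With 2 libraries a group, an exact permutation test of 1 gene cannot go below p = 0.333, so calls rest on the model. The p-values rest on a spread between these libraries that is estimated partly over all genes. Whether it includes the spread between single animals is not known. Replicates differed by more than sampling noise. The tests were tested on simulated counts.

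Alternatives were RLE factors, scaling to 10 CAR cell markers or to eGFP reads, DESeq2 1.42.0, limma-voom (limma 3.58.1), no filter, a minimum count of 30, and leaving out each library. Named were all members that passed, 12 members chosen for their roles (Tnfrsf17 had no row) and the 5 with the highest mean CPM. Other members are given by values. Members and lists were chosen with earlier results of these data known. All 31 members matched a GENCODE M21 gene (GRCm38), and promoters are from RefSeq (GRCm38.p6). Of the marker lists of other cells, the number called higher and lower was 5 and 0 of 7 for pan-leukocyte, 8 and 0 of 8 for B lymphocyte, 0 and 0 of 3 for plasma cell, 1 and 0 of 6 for T and NK, 0 and 0 of 6 for neutrophil, 2 and 0 of 6 for monocyte and macrophage, 1 and 1 of 7 for osteoclast, 4 and 0 of 5 for erythroid, 0 and 0 of 4 for megakaryocyte, 1 and 0 of 5 for endothelial, 0 and 1 of 10 for CAR cell, 0 and 5 of 7 for osteoblast and 0 and 0 of 6 for chondrocyte.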

Additional observations from a re-analysis of the deposited data

How the results depend on the processing

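No paired analysis was possible because the groups share only 1 replicate number. The number of members called higher and lower (1 and 3) was the same with RLE factors, 2 and 0 after scaling to the CAR cell markers and to eGFP reads, 4 and 6 with DESeq2 and 2 and 4 with limma-voom, and ran from 1 to 3 higher and 1 to 4 lower when 1 library was left out. Over all genes, 751 higher and 940 lower calls became 609 and 71 (89.6% higher) after scaling to the CAR cell markers, 324 and 19 (94.5% higher) after scaling to eGFP and 1411 and 1552 with DESeq2, and ran from 183 to 1225 higher and 181 to 998 lower when 1 library was left out. Among superfamily genes with other symbols (3 higher), Ltbr was called lower with DESeq2 and limma-voom (1 each), Cd27 was called higher with DESeq2, and leaving out 1 library gave 1 to 3 higher and 0 to 1 lower (Eda, without Hes1-derived replicate 1). The 46 signalling genes gave 0 calls in all 11 alternatives. Of 143 values of 13 named members under the alternatives, 113 kept their sign and their side of the threshold, 10 lost and 11 gained the call, and 9 turned their sign. Those that turned were Tnfrsf11a (0.65 after scaling to the CAR cell markers, 0.99 after scaling to eGFP, and −1.07 to 0.49 when 1 library was left out), Tnfrsf1a (0.20 and 0.42 after the 2 scalings, which shift all genes, and −0.40 and −0.41 relative to their median), Tnfrsf1b (−0.048 to 0.41 when 1 library was left out) and Tnfsf13 (−0.056 to 0.28 likewise), none of which was called. Fits with 1 library left out have fewer degrees of freedom, and the cause of the changes under the alternatives was not tested. For members with few reads, such as Tnf and Tnfrsf11a, these libraries allow no small difference to be detected. Tnfrsf11a had 40 and 129 reads in the Hes1-derived pair. The parts of read number and of the spread between replicates were not tested.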
